A study of Mus musculus with 16 samples.

Results

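The collagen genes are the family that encodes the chains of collagen, the triple-helical proteins that make up most of the extracellular matrix. They were found on the array by their symbol, which is Col, a type number, the letter a and a chain number, among probe sets that carry a single symbol. This gave 82 probe sets for 42 genes, of 18193 genes that had such a probe set. Where a gene had several probe sets, the brightest of them, by mean log2 signal over the 16 arrays, stood for the gene, and 15 of the 42 genes had only 1. By the kind of structure that their products form, 11 of the genes are fibrillar, 8 belong to basement membranes and 23 to other types.

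Expression was measured in mouse CCE embryonic stem cells that had been removed from their layer of irradiated embryonic fibroblasts and left to differentiate as embryoid bodies without LIF. Every population shared this line and this treatment, and no genotype was altered. The populations were VEGF-R2+ and VEGF-R2- cells at day 2.5, CD41+ and CD41- cells at day 3.5, and CD144+ and CD144- cells at day 3.5 and at day 6.5, with 2 arrays for each. VEGF-R2 marks a common precursor of blood and endothelium, CD41 early blood cells and CD144, or VE-cadherin, endothelial cells. The study treats its CD41+ and CD144+ cells as arising within the VEGF-R2+ cells, the duplicates came from separate experiments, and the cells were fixed in ethanol and acetic acid before they were stained and sorted. A sorted population is only as pure as its gate, and all of them come from 1 cell line.

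In a collagen molecule 3 chains wind around each other. Types I, II, III, V and XI form the banded fibrils of connective tissue, cartilage and vessel walls, while type IV forms the sheet-like network of the basement membrane on which endothelium and epithelium rest. Types XV and XVIII sit at the basement membrane zone and carry sugar chains, and type XVIII is the source of endostatin, an inhibitor of vessel growth. Other types decorate the surface of fibrils, form beaded filaments or span the plasma membrane.

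Several collagen genes lie next to each other in the genome, and 7 pairs of the 42 are neighbours, among them Col3a1 with Col5a2 and Col4a1 with Col4a2. The type IV pair is shown because its genes, whose products join in 1 molecule, start back to back and were read out together in the values given further on. In RefSeq (GRCm38.p6) Col4a2 starts at position 11312805 on the + strand of chromosome 8 and Col4a1 at 11312826 on the - strand, so that 22 bases belong to the start of both transcripts. These 22 bases are in capitals in the stretch chr8:11312801-11312830, read on the + strand.
Col4a1 and Col4a2: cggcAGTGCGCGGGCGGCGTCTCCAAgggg

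Upstream stretches of 250 bases are shown for 4 members whose levels differed most clearly in kind. Col1a2 and Col3a1 moved together, and Col13a1 was high in 1 population. For Col18a1 the difference between positive and negative cells had another direction in the VEGF-R2 sort than in the CD41 and CD144 sorts. They are RefSeq sequences of GRCm38.p6, read 5′ to 3′ along the strand of the gene, at chr6:4505368-4505617 (+) for Col1a2, chr1:45311288-45311537 (+) for Col3a1, chr10:77166531-77166780 (-) for Col18a1 and chr10:61979109-61979358 (-) for Col13a1. Capitals mark 3 short motifs on either strand, the CCAAT box, the GC box with the letters GGGCGG, and the TATA box with the letters TATAAA, and no matches overlap in these windows. Col18a1 has a further RefSeq start that is not shown, and which of its starts the probe set reads was not determined.
Col1a2: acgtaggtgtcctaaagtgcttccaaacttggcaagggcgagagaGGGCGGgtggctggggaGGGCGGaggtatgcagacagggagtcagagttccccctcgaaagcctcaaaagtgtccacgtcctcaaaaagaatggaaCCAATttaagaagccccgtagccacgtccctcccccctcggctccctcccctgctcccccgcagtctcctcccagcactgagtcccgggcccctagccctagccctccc
Col3a1: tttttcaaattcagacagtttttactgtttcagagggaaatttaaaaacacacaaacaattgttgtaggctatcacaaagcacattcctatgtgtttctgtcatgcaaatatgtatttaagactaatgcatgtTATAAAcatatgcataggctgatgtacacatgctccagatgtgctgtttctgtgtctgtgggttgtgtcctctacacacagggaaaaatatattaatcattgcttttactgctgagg
Col18a1: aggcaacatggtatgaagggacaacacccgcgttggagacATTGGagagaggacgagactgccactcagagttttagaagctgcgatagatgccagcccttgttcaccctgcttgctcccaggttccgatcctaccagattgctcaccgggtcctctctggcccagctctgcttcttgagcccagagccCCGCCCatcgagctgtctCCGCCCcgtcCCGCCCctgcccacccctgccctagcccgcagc
Col13a1: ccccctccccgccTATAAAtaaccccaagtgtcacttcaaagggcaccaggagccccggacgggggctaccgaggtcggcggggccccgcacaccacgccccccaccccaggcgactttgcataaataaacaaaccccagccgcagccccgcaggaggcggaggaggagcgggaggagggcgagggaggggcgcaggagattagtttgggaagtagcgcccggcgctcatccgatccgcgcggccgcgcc

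RefSeq windows of this length were found for 33 of the 42 collagen genes, as 36 windows. The GC box letters were in 58.3% of these 36 and in 32.7% of all 32851 windows. The CCAAT letters were in 36.1% and 33.8%, and the TATA box letters in 13.9% and 12.4%. Such matches describe the letters of these windows and are not sites shown to be used.

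The transcripts of the sorting markers checked the labels of positive against negative cells. Kdr, which encodes VEGF-R2, was at 5475 and 6297 in VEGF-R2+ and at 2088 and 2077 in VEGF-R2- cells. Itga2b, which encodes CD41, was at 7523 and 5299 in CD41+ and at 227 and 195 in CD41- cells. Cdh5, which encodes CD144, was at 2085 and 1863 in CD144+ and at 38.3 and 20.5 in CD144- cells at day 3.5, and at 3166 and 2219 against 31.0 and 37.2 at day 6.5. The marker transcripts were also raised outside their own sorts. Cdh5 read 828 and 1852 in CD41+ and 27.7 and 20.6 in CD41- cells. Itga2b read 1632 and 1847 in CD144+ and 224 and 179 in CD144- cells at day 3.5. At day 6.5 it read 2716 and 1729 against 292 and 336. All 10 endothelial markers of a list passed the test as higher in CD41+ and in CD144+ cells of both days than in negative cells. That list includes Cdh5 and Kdr. The 8 arrays of positive cells differed from the 8 of negative cells in other ways too. The 11 hybridization control probe sets had a geometric mean of 8144 to 14210 on positive and of 2771 to 3801 on negative arrays, and duplicates correlated with a Spearman coefficient of 0.872 to 0.895 and of 0.945 to 0.955. The sort and this difference between arrays cannot be told apart, so each sort difference below is at the same time a difference between the 2 sets.

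Signals are MAS5 values on a linear scale, their median over all arrays was 85.8, and a member was called where limma gave an adjusted p under 0.05. A level above that median in at least 1 population was reached by 31 of the 42 genes, that is by 10 of 11 fibrillar, 6 of 8 basement membrane and 15 of 23 other genes. The highest population mean lay in CD144+ cells at day 6.5 for 18 of the 42, and for 12 of these both arrays lay above the other 14 arrays. The same was not counted over all genes, so neither count is shown to be particular to the collagen genes. In 16 genes no comparison gave a call, namely Col5a3, Col11a2 and Col24a1 of the fibrillar, Col4a3 of the basement membrane and 12 of the other genes. The shares of all genes above the median or without any call were not counted either, so these numbers describe the members alone. The median of all genes was itself above 0 in the comparisons of positive with negative cells, at 0.16 for VEGF-R2, 0.18 for CD41, 0.17 for CD144 at day 3.5 and 0.14 at day 6.5 on the log2 scale.

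Between positive and negative cells the collagen genes moved in both directions. In VEGF-R2+ cells at day 2.5, 10 of the 42 were higher and 4 lower, while 16% and 13.7% of all genes were called in these directions. In CD41+ cells 7 were higher and 2 lower (all genes 19.2% and 17.2%). In CD144+ cells at day 3.5, 7 were higher and 3 lower (13.7% and 10.3%), and at day 6.5, 6 were higher and 2 lower (13.4% and 11.9%). The members' shares of higher calls, 23.8%, 16.7%, 16.7% and 14.3%, lay within a few percent of those of all genes except at day 2.5, and their shares of lower calls, 9.52%, 4.76%, 7.14% and 4.76%, were below those of all genes. The kinds of collagen gave different counts. Of the 8 basement membrane genes 4, 4, 4 and 3 were higher in these comparisons and 1 was lower, Col18a1 in VEGF-R2+ cells. Of the 11 fibrillar genes 1, 2, 1 and 2 were higher and 3, 1, 2 and 1 lower. The median log2 difference of the basement membrane genes was 0.96, 1.48, 1.37 and 1.36, and that of the fibrillar genes -0.29, -0.08, 0.48 and 0.34.

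**Figure D1:**
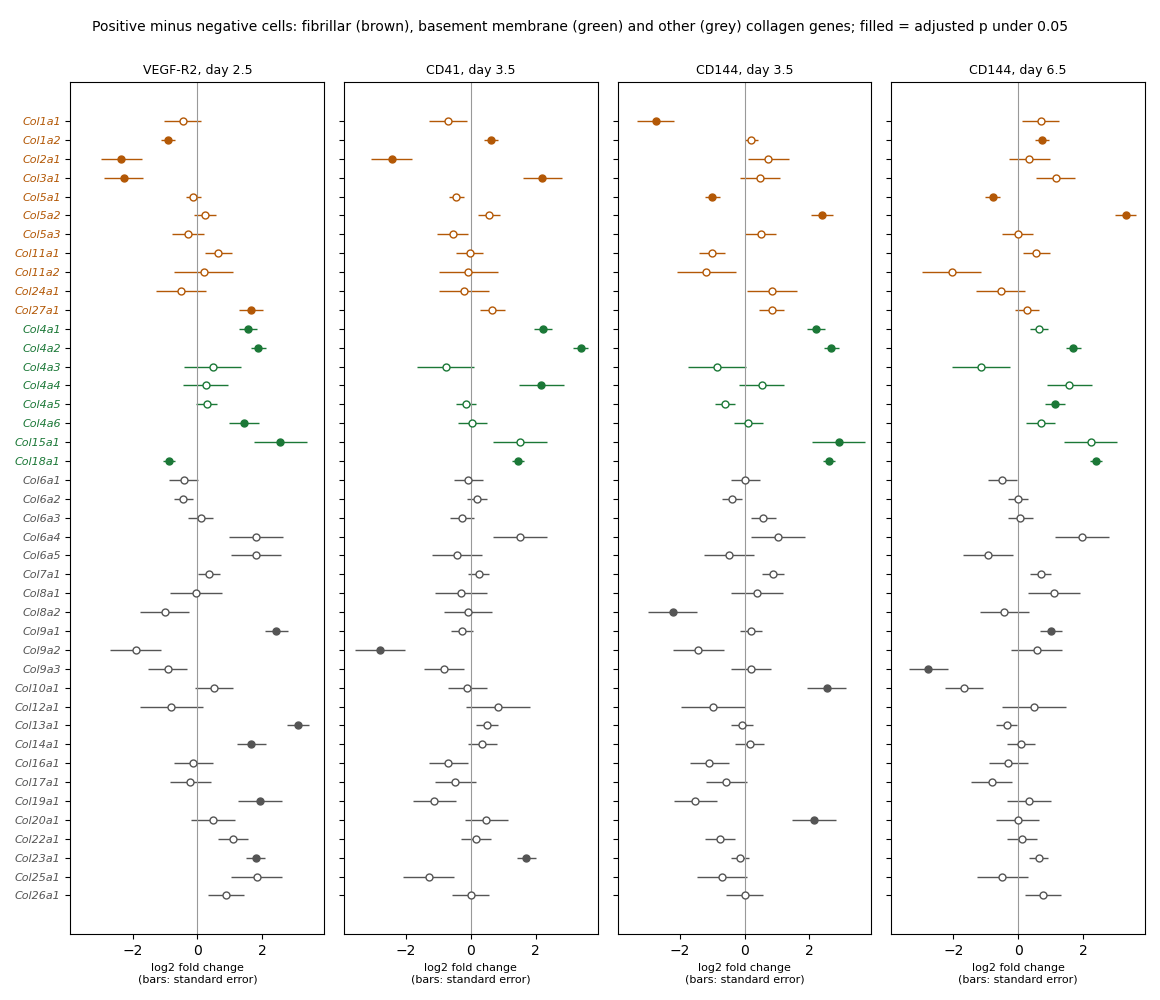
Log2 fold change (x axis) of each of the 42 collagen genes (y axis) between positive and negative cells in the 4 sorts, with bars for the standard error and filled points for an adjusted p under 0.05 in limma. Fibrillar genes are brown, basement membrane genes green and other genes grey. Col4a2 lies to the right of 0 in all 4 panels, while Col18a1 lies left of 0 in the VEGF-R2 panel and right of it in the other 3.

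Over time the calls were fewer among all genes. The comparisons of day 3.5 with day 2.5 set populations of different sorting markers against each other. Day and marker cannot be told apart in them, and only those from day 3.5 to day 6.5 keep the marker. Between VEGF-R2+ cells and CD41+ cells 1 collagen gene was higher and 10 were lower in CD41+ cells (all genes 7.04% and 7.59%). Between VEGF-R2+ cells and CD144+ cells at day 3.5, 2 were higher and 1 lower (7.21% and 3.92%). From day 3.5 to day 6.5, 9 rose and 2 fell in CD144+ cells (4.23% and 4%). In negative cells 3 were higher and 4 lower in CD144- cells at day 3.5 than in VEGF-R2- cells at day 2.5 (6.49% and 4.93%), and from day 3.5 to day 6.5, 6 rose in CD144- cells and none fell (0.929% and 0.28%). Limma gave no lower member there, and 14 of the 42 had an unadjusted p under 0.05, a count that was not made for all genes. In CD144+ cells 7 of the 11 fibrillar genes, or 63.6%, were among the 9 that rose by day 6.5, and their median log2 change was 1.62, beside 0.03 for all genes. Of the basement membrane genes 1 of 8 rose and their median change was 0.57. In CD144- cells 3 fibrillar and 3 basement membrane genes rose, and the median changes of these classes were 1.30 and 0.57, beside 0.04 for all genes. When the fit held only arrays of positive or only arrays of negative cells, 7 of the 42 rose in CD144+ and 7 in CD144- cells. The shares of all genes were not counted in these fits, so the 2 numbers cannot be set against each other. Whether the change over time differed between CD144+ and CD144- cells was tested as an interaction. It was called for 1 member, Col10a1, as lower (all genes 0.572% higher and 0.759% lower). It was called for none of the 11 fibrillar or 8 basement membrane genes. Of these 2 and 3 had an unadjusted p under 0.05, again without a count for all genes.

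**Figure D2:**
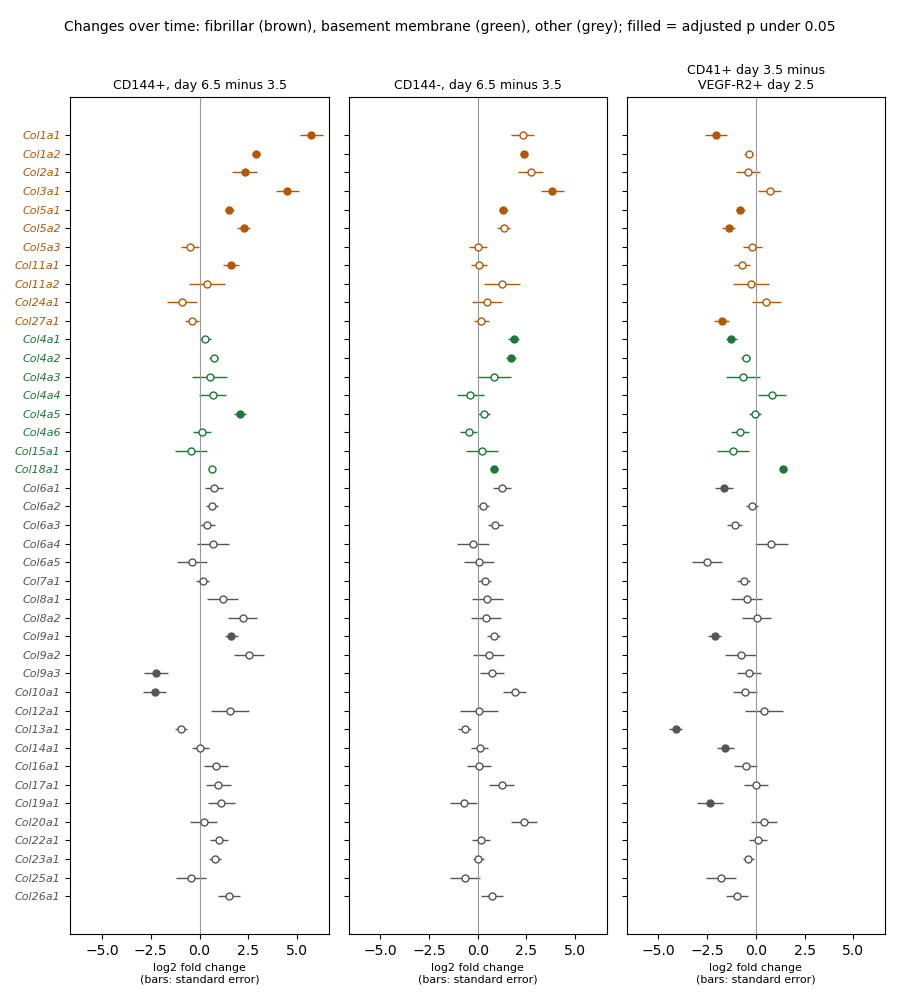
Log2 fold change (x axis) of the 42 collagen genes (y axis) from day 3.5 to day 6.5 in CD144+ cells, over the same days in CD144- cells, and between CD41+ cells at day 3.5 and VEGF-R2+ cells at day 2.5, with bars for the standard error and filled points for an adjusted p under 0.05 in limma. In the left panel 7 of the 11 fibrillar genes (brown) are filled points right of 0, up to 5.73 for Col1a1, while Col5a3, Col24a1 and Col27a1 lie left of 0 as open points, and Col13a1 lies at -4.10 in the right panel.

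Col4a1 and Col4a2 encode the 2 chains of the type IV collagen found in nearly all basement membranes. Col4a2 was higher in the positive cells of all 4 sorts, and Col4a1 in those of the 3 earlier sorts. For Col4a2 (probe set 1424051_at) the arrays read 3068 and 3584 in VEGF-R2+ cells and 904 and 891 in VEGF-R2- cells, then 1539 and 3420 in CD41+ cells and 213 and 215 in CD41- cells. At day 3.5 they read 4249 and 3972 in CD144+ cells and 637 and 633 in CD144- cells. At day 6.5 they read 7102 and 6467 in CD144+ cells and 2165.6 and 1994 in CD144- cells. In each pair of populations both positive arrays lay above both negative arrays, with no overlap. The log2 fold changes in limma were 1.88 at day 2.5 (standard error 0.24, adjusted p = 2.24e-05), 3.39 for CD41 (standard error 0.24, adjusted p = 1.64e-08), 2.68 for CD144 at day 3.5 (standard error 0.24, adjusted p = 9.35e-07) and 1.70 at day 6.5 (standard error 0.24, adjusted p = 7.61e-05). These 4 calls stood in every alternative. As the samples are bulk RNA, a difference in the number of cells that express a gene and in the RNA per cell cannot be told apart here or in any later comparison.

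Col4a1 (1452035_at) read 6418 and 7405 in VEGF-R2+ and 2387 and 2282 in VEGF-R2- cells, 1785 and 4644 in CD41+ and 645 and 578 in CD41- cells, and 6801 and 8487 in CD144+ and 1759 and 1534 in CD144- cells at day 3.5. The day 6.5 arrays read 10409 and 8390 in CD144+ and 6098 and 5819 in CD144- cells. The sort differences were called at the earlier days, with log2 fold changes of 1.56, 2.23 and 2.21 (adjusted p = 0.000554, 1.16e-05 and 3.5e-05 in limma), and these calls too stood in every alternative. At day 6.5 the populations again did not overlap, but the log2 difference of 0.65 did not pass (adjusted p = 0.121), while the other probe set of Col4a1 gave 1.499 and passed (adjusted p = 0.00191). Over the 8 population means, which share their arrays, the log2 levels of Col4a1 and Col4a2 followed each other with a Pearson r of 0.968 and a Spearman rho of 0.976, given as a description.

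In the negative cells both genes rose late. From day 3.5 to day 6.5 in CD144- cells Col4a1 rose by 1.85 on the log2 scale (adjusted p = 0.00269) and Col4a2 by 1.70 (adjusted p = 0.00134). In CD144+ cells over the same days their log2 changes, 0.30 and 0.72, did not pass (adjusted p = 0.614 and 0.0858). The difference between these changes was -1.56 for Col4a1 (adjusted p = 0.082) and -0.98 for Col4a2 (adjusted p = 0.22) and was not called for either. The rise of Col4a1 in CD144- cells was not called without replicate 2 of the CD144- cells at day 3.5 (adjusted p = 0.0585). Both rises also lost their call with a robust prior without trend. Col4a1 was also lower in CD41+ than in VEGF-R2+ cells, by -1.26 (limma, adjusted p = 0.00742), which was -0.57 and not called without replicate 1 of the CD41+ cells (adjusted p = 0.0721) and -1.95 without replicate 2, nor was it called without replicate 2 of the VEGF-R2+ cells (adjusted p = 0.0704) or with the other probe set, at -0.62 (adjusted p = 0.245).

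**Figure D3:**
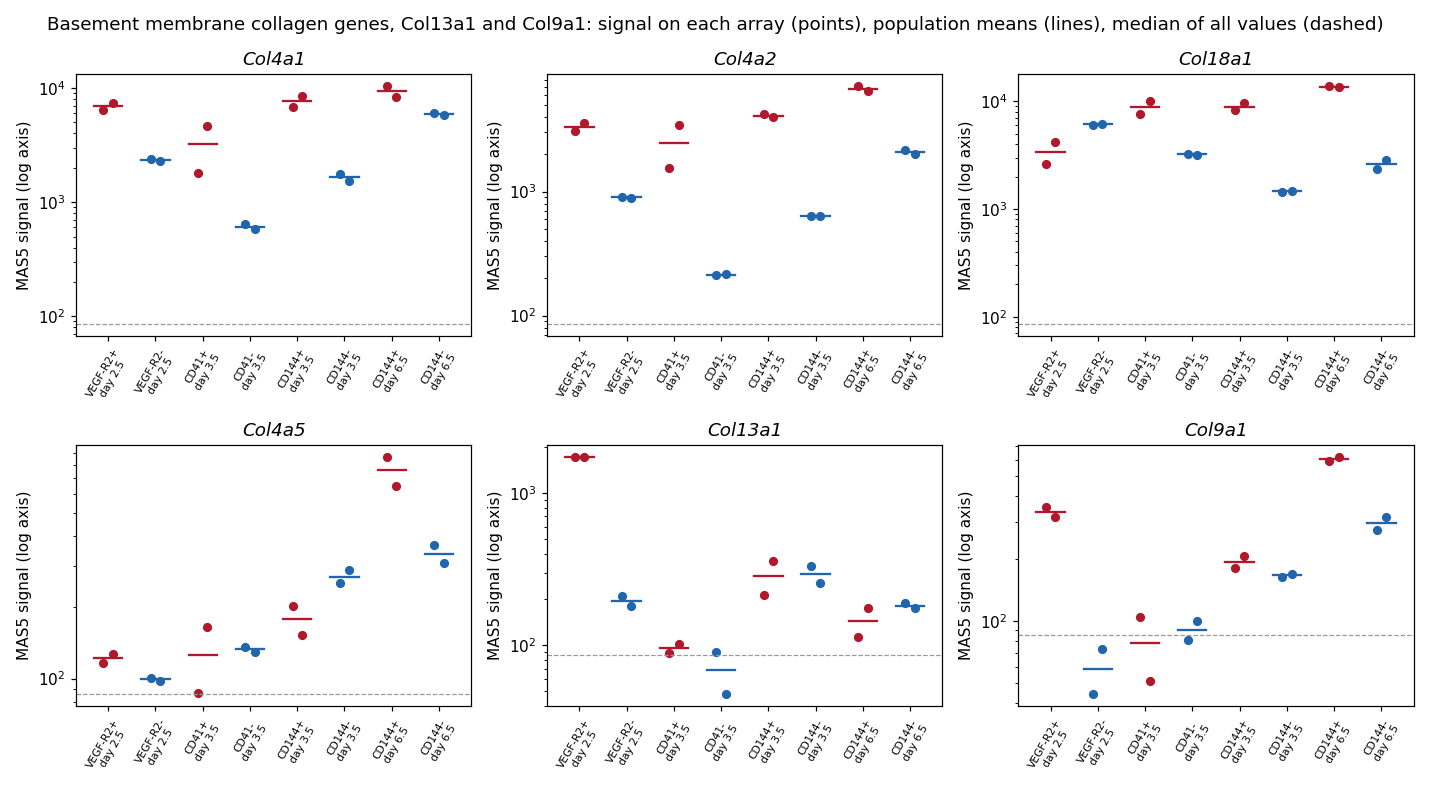
MAS5 signal (y axes, log scale) of Col4a1, Col4a2, Col18a1, Col4a5, Col13a1 and Col9a1 on each array, for the 8 populations (x axis), with positive cells in red and negative cells in blue. Points are arrays, short lines population means and the dashed line the median of all values, 85.8. Col13a1 stands at 1732 and 1721 in VEGF-R2+ cells, above all other arrays, and Col18a1 is lower in positive than in negative cells at day 2.5 and higher in the other 3 sorts.

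Col18a1 (1426955_at), the gene of the endostatin precursor, differed in direction between the sorts. At day 2.5 it read 2597 and 4194 in VEGF-R2+ cells and 6021 and 6197 in VEGF-R2- cells. At day 3.5 it read 7594 and 10056 in CD41+, 3253 and 3158 in CD41-, 8266 and 9576 in CD144+ and 1448 and 1467 in CD144- cells. The day 6.5 arrays read 13816 and 13539 in CD144+ and 2364 and 2876 in CD144- cells. Thus the positive arrays were the lower ones in the VEGF-R2 sort and the higher ones in the CD41 and CD144 sorts. There was no overlap in any pair. The sorting marker changed together with the day, so marker and day cannot be told apart here. The log2 fold change was -0.89 for VEGF-R2 (standard error 0.19, adjusted p = 0.00196), 1.45 for CD41 (standard error 0.19, adjusted p = 1.46e-05), 2.61 for CD144 at day 3.5 (standard error 0.19, adjusted p = 8.88e-08) and 2.39 at day 6.5 (standard error 0.19, adjusted p = 2.2e-07) in limma. All 4 were called in every alternative, and the first was -0.54 without replicate 1 of the VEGF-R2+ cells (adjusted p = 0.043).

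The same gene was higher in CD41+ and in CD144+ cells at day 3.5 than in VEGF-R2+ cells, with log2 fold changes of 1.40 (adjusted p = 8.57e-05) and 1.43 (adjusted p = 0.000133). It was lower in CD144- cells at day 3.5 than in VEGF-R2- cells, by -2.06 (adjusted p = 2.57e-06). These 3 calls stood in every alternative. The other probe set of Col18a1 was called in the same direction in each of these 3 comparisons and in the 4 sorts. In CD144- cells Col18a1 rose by 0.84 to day 6.5 (limma, adjusted p = 0.047). This call was lost in 6 alternatives, among them without replicate 2 of the CD144- cells at day 6.5 and without either of the day 3.5 arrays. In CD144+ cells the change of 0.62 did not pass (adjusted p = 0.0595), while the other probe set, 1418237_s_at, gave 0.95 and passed (adjusted p = 0.00293).

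Col15a1 (1448755_at), whose product is related to that of Col18a1, was near the bottom of the scale in all negative cells, at 3.62 to 9.53. It read 44.6 and 115 in VEGF-R2+, 25.1 and 33.7 in CD41+, 132 and 49.9 in CD144+ cells at day 3.5 and 156 and 19.2 in CD144+ cells at day 6.5. Every positive array was above every negative array, but the duplicates of positive cells lay far apart. The log2 fold changes were 2.56 for VEGF-R2 (adjusted p = 0.03) and 2.91 for CD144 at day 3.5 (adjusted p = 0.0183), while 1.51 for CD41 and 2.24 for CD144 at day 6.5 did not pass (adjusted p = 0.189 and 0.0675). The first call was lost without replicate 2 of the VEGF-R2+ cells or either VEGF-R2- array (adjusted p = 0.09 to 0.2). The second was lost without replicate 1 of the CD144+ cells or either CD144- array of day 3.5 (adjusted p = 0.0594 to 0.134).

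Col4a5 (1425476_at), a type IV chain of the kidney filter and other special basement membranes, followed another course. It read 117 and 127 in VEGF-R2+, 101 and 97.8 in VEGF-R2-, 86.6 and 164 in CD41+, 136 and 129.9 in CD41-, 204 and 153 in CD144+ and 252 and 287 in CD144- cells at day 3.5, so that the highest arrays of that day were those of CD144- cells. The arrays of day 6.5 read 866 and 651 in CD144+ and 366 and 308 in CD144- cells. Between these days it rose by 2.05 on the log2 scale in CD144+ cells (standard error 0.31, adjusted p = 0.000902), a call that stood in every alternative. It was higher in CD144+ than in CD144- cells at day 6.5, by 1.15 (adjusted p = 0.0146), which was lost without replicate 1 of the CD144+ cells (adjusted p = 0.119) or replicate 2 of the CD144- cells (adjusted p = 0.0988) of that day. Col4a5 was higher in CD144- cells at day 3.5 than in VEGF-R2- cells, by 1.39 (adjusted p = 0.00971), a call lost without any of these 4 arrays (adjusted p = 0.0571 to 0.117). Of the remaining type IV genes, Col4a6 was higher in VEGF-R2+ cells by 1.44 (adjusted p = 0.0261), which was lost without any 1 of the 4 arrays and was 2.46 with its most variable probe set (adjusted p = 0.0649). Col4a4 was higher in CD41+ cells by 2.17 (adjusted p = 0.0263), at a level below the median of all values in every population, and this too was lost without any 1 of the 4 arrays, and as the mean of its probe sets, at 1.31 (adjusted p = 0.0876).

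The fibrillar genes Col1a1 and Col1a2, whose chains form type I collagen, the main fibril of bone, skin and vessel wall, reached their highest levels at day 6.5. Col1a2 (1450857_a_at) read 249.8 and 343 in VEGF-R2+, 559 and 549 in VEGF-R2-, 222 and 228 in CD41+, 145 and 146 in CD41-, 419.5 and 278 in CD144+ and 288 and 299.8 in CD144- cells at day 3.5. At day 6.5 it read 2759 and 2391 in CD144+ and 1431 and 1658 in CD144- cells, and all 4 of these arrays were above the other 12. By day 6.5 it had risen by 2.89 on the log2 scale in CD144+ cells (standard error 0.21, adjusted p = 6.49e-07) and by 2.37 in CD144- cells (standard error 0.21, adjusted p = 1.12e-05). Both rises were called in every alternative. The difference between these rises, 0.52, did not pass (adjusted p = 0.532).

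Col1a1 (1423669_at) read 69.9 and 41.0 in VEGF-R2+, 105 and 54.4 in VEGF-R2-, 5.87 and 11.8 in CD41+ and 9.59 and 30.0 in CD41- cells. In CD144+ cells it went from 16.03 and 13.1 at day 3.5 to 1659 and 709 at day 6.5, and in CD144- cells from 183 and 93.4 to 637 and 703. The days did not overlap in either kind of cell, and at day 6.5 the lower CD144+ array was close to the higher CD144- array. Col1a1 rose by 5.73 on the log2 scale in CD144+ cells (standard error 0.58, adjusted p = 1.96e-05), starting from signals below the 25th percentile of all values (23.4), and this was called in every alternative. The other probe set, 1455494_at, rose by 3.69 (adjusted p = 0.00034). In CD144- cells the change of 2.30 did not pass (adjusted p = 0.0983), although the other probe set gave 2.78 and passed (adjusted p = 0.0116). The difference between the changes, 3.43, did not pass (adjusted p = 0.0606), and with the other probe set it was 0.92 (adjusted p = 0.664).

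At day 3.5 Col1a1 was lower in CD144+ than in CD144- cells, by -2.74 on the log2 scale (adjusted p = 0.00251). This call was lost without replicate 1 of the CD144- cells (adjusted p = 0.0573), and the other probe set gave -0.26 (adjusted p = 0.771). In VEGF-R2+ against VEGF-R2- cells the probe sets disagreed, with -0.46 not passing (adjusted p = 0.621) and 1.75 passing for the other (adjusted p = 0.0159). For Col1a2 the CD144 sort at day 3.5 gave a log2 difference of 0.21, which did not pass (adjusted p = 0.543). At day 6.5 the sort difference was 0.74 for Col1a2 (adjusted p = 0.0218) and 0.69 for Col1a1 (adjusted p = 0.461). The former was lost without either CD144+ array or without replicate 1 of the CD144- cells (adjusted p = 0.133, 0.0519 and 0.143). Col1a2 was lower in VEGF-R2+ cells, by -0.91 (adjusted p = 0.00475), not called without replicate 1 of those cells (adjusted p = 0.0591) or as the mean of its probe sets, at -0.52 (adjusted p = 0.16). It was higher in CD41+ cells by 0.61 (adjusted p = 0.0416), a call lost without any 1 of the 4 arrays (adjusted p = 0.0897 to 0.14). In CD144- cells at day 3.5 it was lower than in VEGF-R2- cells, by -0.90 (adjusted p = 0.0141), which was -0.37 as the mean of its probe sets and was lost without any 1 of the 4 arrays (adjusted p = 0.0911 to 0.121).

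**Figure D4:**
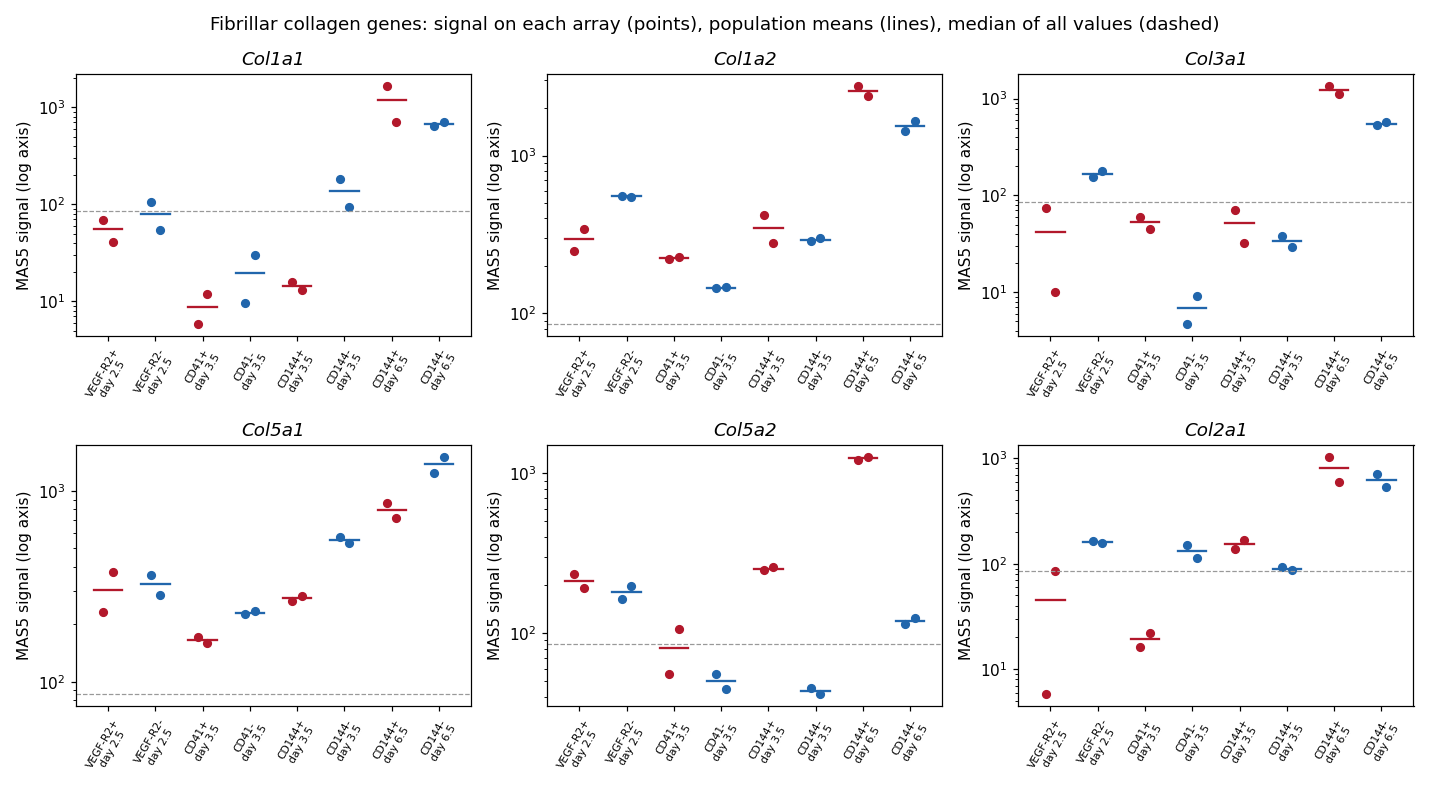
MAS5 signal (y axes, log scale) of Col1a1, Col1a2, Col3a1, Col5a1, Col5a2 and Col2a1 on each array, for the 8 populations (x axis), with positive cells in red and negative cells in blue. Points are arrays, short lines population means and the dashed line the median of all values, 85.8. Col1a2 and Col3a1 are highest on the 4 arrays of day 6.5, while Col5a2 is at 1215 and 1271 in CD144+ and at 115 and 125 in CD144- cells of that day.

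Col3a1 (1427883_a_at), which encodes the chain of type III collagen that accompanies type I in vessel walls, read 74.3 and 10.02 in VEGF-R2+, 157 and 177 in VEGF-R2-, 60.04 and 45.5 in CD41+ and 4.72 and 9.15 in CD41- cells. At day 3.5 it read 71.6 and 32.6 in CD144+ and 38.1 and 29.1 in CD144- cells, which overlapped. At day 6.5 it read 1348 and 1128 in CD144+ and 533 and 567 in CD144- cells. Between these days it rose by 4.50 on the log2 scale in CD144+ cells (standard error 0.60, adjusted p = 0.000318), which was called in every alternative. In CD144- cells it rose by 3.82 (limma, standard error 0.60, adjusted p = 0.00368). This call was lost in 3 alternatives, among them without replicate 2 of either day. At day 6.5 the CD144+ arrays were above the CD144- arrays, but the log2 difference of 1.16 did not pass (adjusted p = 0.208). The other probe set, 1427884_at, gave 1.31 in CD144+ cells and 3.38 in CD144- cells, and neither passed (adjusted p = 0.391 and 0.0703).

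Earlier, Col3a1 was lower in VEGF-R2+ than in VEGF-R2- cells, by -2.27 (adjusted p = 0.0104), and higher in CD41+ than in CD41- cells, by 2.19 (adjusted p = 0.0104). The first rests on a pair of VEGF-R2+ arrays that lay far apart. It was -1.10 and not called without replicate 2 of the VEGF-R2+ cells (adjusted p = 0.16), -3.43 without replicate 1, and not called without either VEGF-R2- array (adjusted p = 0.055 and 0.077). The other probe set gave 0.32 there (adjusted p = 0.819) and the mean of both -0.97 (adjusted p = 0.0963), and at day 3.5 it was higher in CD144+ than in CD144- cells by 2.84 (adjusted p = 0.0182), where the first gave 0.48 (adjusted p = 0.644). The difference for CD41 was not called without replicate 1 of the CD41+ or of the CD41- cells (adjusted p = 0.0593 and 0.0767). Col3a1 was also lower in CD144- cells at day 3.5 than in VEGF-R2- cells, by -2.13 (adjusted p = 0.0397), which was lost without any 1 of the 4 arrays (adjusted p = 0.136 to 0.251). Over the 8 population means, which share their arrays, the log2 level of Col1a2 followed that of Col3a1 with a Pearson r of 0.979 (Spearman rho 0.857) and that of Col1a1 with 0.906 (rho 0.762).

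Col5a1 and Col5a2 encode chains of type V collagen, which joins type I in fibrils and sets their width. They did not run together. Col5a2 (1422437_at) read 235 and 191 in VEGF-R2+, 164 and 196 in VEGF-R2-, 55.3 and 106 in CD41+ and 55.7 and 44.9 in CD41- cells, and both pairs overlapped. It read 246 and 259 in CD144+ and 45.5 and 41.4 in CD144- cells at day 3.5, and 1215 and 1271 against 115 and 125 at day 6.5. The sort difference of CD144 was 2.39 on the log2 scale at day 3.5 (standard error 0.34, adjusted p = 8.96e-05) and 3.32 at day 6.5 (standard error 0.34, adjusted p = 3.23e-06), and both were called in every alternative. The other probe set, 1450625_at, gave 2.47 at day 3.5 (adjusted p = 0.0243) and 1.66 at day 6.5, which did not pass (adjusted p = 0.131). Between the days Col5a2 rose by 2.27 in CD144+ cells (adjusted p = 0.000767), while the change of 1.34 in CD144- cells did not pass (adjusted p = 0.0973) and neither did the difference of 0.93 between them (adjusted p = 0.46). In CD144- cells at day 3.5 it was lower than in VEGF-R2- cells, by -1.91 (adjusted p = 0.00154), in every alternative.

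Col5a1 (1416740_at) had its lower readings in the CD144+ cells. It read 266 and 279 in CD144+ and 573 and 531 in CD144- cells at day 3.5, and 866 and 721 in CD144+ and 1239 and 1511 in CD144- cells at day 6.5. It read 231 and 377 in VEGF-R2+, 362 and 284 in VEGF-R2-, 171 and 159.9 in CD41+ and 225 and 235 in CD41- cells. The 4 CD144 populations did not overlap at either day, and all rose with time. The sort difference was -0.9998 at day 3.5 (adjusted p = 0.00515) and -0.79 at day 6.5 (adjusted p = 0.0234). The former was lost in 2 alternatives, among them without replicate 1 of the CD144- cells of day 3.5. The latter was lost in 5, among them without replicate 2 of the CD144+ or of the CD144- cells of day 6.5. The rise to day 6.5 was 1.52 in CD144+ cells (adjusted p = 0.000974) and 1.30 in CD144- cells (adjusted p = 0.0105). The latter was lost in 5 alternatives, among them without replicate 2 of the CD144- cells at day 6.5 or either array of day 3.5. Of its other probe sets, 1434479_at was called for both rises (1.31 and 1.15, adjusted p = 0.00378 and 0.0325) and 1416741_at for neither, and neither was called for a CD144 sort difference. Over the 8 population means the log2 levels of Col5a1 and Col5a2 had a Pearson r of 0.307.

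Col2a1 (1450567_a_at), the main fibrillar chain of cartilage, read 5.78 and 85.8 in VEGF-R2+ and 165 and 159 in VEGF-R2- cells, and 16.2 and 22.1 in CD41+ and 149.5 and 113 in CD41- cells. It read 139 and 168 in CD144+ and 92.5 and 86.3 in CD144- cells at day 3.5, and 1036 and 590.0 in CD144+ and 709 and 536 in CD144- cells at day 6.5. It was thus lower in VEGF-R2+ and CD41+ cells than in their negative cells, and the day 6.5 populations overlapped. The log2 fold changes were -2.35 for VEGF-R2 (adjusted p = 0.0109) and -2.45 for CD41 (adjusted p = 0.00674). The former was -0.87 without replicate 1 of the VEGF-R2+ cells (adjusted p = 0.152), -3.83 without replicate 2, and not called without either VEGF-R2- array (adjusted p = 0.0651 and 0.0602). The latter was lost without replicate 1 of the CD41- cells (adjusted p = 0.0574). Col2a1 was higher in CD144+ cells at day 3.5 than in VEGF-R2+ cells by 2.27 (adjusted p = 0.0355), but by 0.79 without replicate 1 of the VEGF-R2+ cells (adjusted p = 0.318) and by 3.75 without replicate 2. It rose by 2.31 in CD144+ cells to day 6.5 (adjusted p = 0.0392), a call lost without any 1 of the 4 arrays (adjusted p = 0.0753 to 0.227). In CD144- cells its change of 2.71 did not pass (adjusted p = 0.0633).

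The remaining fibrillar genes with calls were Col11a1 and Col27a1. Col11a1 (1418599_at), a minor fibril chain of cartilage, read 58.1 and 50.2 in CD144+ cells at day 3.5 and 187 and 172 at day 6.5, the highest 2 of its 16 arrays. It rose by 1.62 on the log2 scale (adjusted p = 0.0273), a call lost in 8 alternatives. Col27a1 (1429549_at), a fibrillar gene of developing cartilage and other tissues, read 509.8 and 535 in VEGF-R2+ cells, above all other arrays, which lay between 67.9 and 310.1. Col27a1 was higher in VEGF-R2+ than in VEGF-R2- cells by 1.65 (adjusted p = 0.00394), lost without replicate 2 of the VEGF-R2- cells (adjusted p = 0.0548) and with its most variable probe set, at 0.61 (adjusted p = 0.198). It was lower in CD41+ than in VEGF-R2+ cells by -1.75 (adjusted p = 0.00627), in every alternative, and by -3.53 with that probe set. Besides Col27a1, the fibrillar genes that were lower in CD41+ than in VEGF-R2+ cells were Col1a1 by -2.04 (adjusted p = 0.0318), Col5a2 by -1.40 (adjusted p = 0.0123) and Col5a1 by -0.81 (adjusted p = 0.0338). None of the last 3 calls stood when the fit held only these populations (adjusted p = 0.33, 0.239 and 0.364). Each was also lost without replicate 1 of the CD41+ cells (adjusted p = 0.153, 0.114 and 0.0825), and without replicate 2 of the VEGF-R2+ cells Col5a1 was at -0.47 (adjusted p = 0.307). With its most variable probe set Col5a1 was at -1.95 (adjusted p = 0.112), and with an offset of 32 Col1a1 was at -1.08 (adjusted p = 0.121).

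Markers of other cell types moved over the same days as the fibrillar genes. From day 3.5 to day 6.5 in CD144+ cells, 4 of 9 fibroblast and mesenchyme markers were higher and 1 was lower, and in CD144- cells 2 were higher. Their summed signal was 1203 to 1397 in CD144+ and 2015 to 2302 in CD144- cells at day 3.5, and 2947 to 3352 and 3278 to 3480 at day 6.5. Postn, a matrix protein of mesenchyme, read 5.52 and 19.1 in CD144+ cells at day 3.5 and 1469.8 and 1745 at day 6.5, when CD144- cells read 690.1 and 604. Pdgfra, of the same list, went the other way at day 6.5, at 344 and 267 in CD144+ and 1120 and 983 in CD144- cells. In that sort 1 of the 9 was called as higher and 1 as lower, with a median log2 difference of -0.31. Acta2, the actin of smooth muscle, read 11422 and 13048 in CD144+ and 3439 and 4179.8 in CD144- cells at day 6.5. The 5 smooth muscle markers summed to 16380 to 18210 in CD144+ and 5960 to 6730 in CD144- cells of day 6.5. In CD144+ cells of day 3.5 they summed to 4519 to 5356. Most of the sums at day 6.5 came from Acta2 and from Tagln, at 4159 and 4352 in CD144+ and 1849 and 1733 in CD144- cells. In that sort 2 of the 5 were called as higher and none as lower, with a median log2 difference of 0.63. From day 3.5 to day 6.5, 1 of the 5 was called as higher in CD144+ and 1 in CD144- cells. The 11 markers of extraembryonic endoderm summed to 11580 to 12810 in CD144+ and 8824 to 9438 in CD144- cells at day 6.5, beside 4950 to 5053 and 5733 to 5856 at day 3.5. In the CD144 sort of day 6.5, 3 of the 11 were called as higher and 2 as lower, with a median log2 difference of 0.003. Of the sums at that day Ttr alone made 4091 and 5533 in CD144+ and 771 and 679 in CD144- cells. In the same cells the 10 endothelial markers summed to 31020 to 31520 and 882.6 to 941.4 at day 6.5. The 4 measured markers of cartilage and notochord summed to 714.2 to 740.7 in CD144+ and 3468 to 3549 in CD144- cells at day 6.5. Of these sums Shh alone made 349 and 315 in CD144+ and 3142 and 2997 in CD144- cells. In this sort 1 of the 4 was called as lower and none as higher, with a median log2 difference of -0.30. Blood markers, of which 7 were measured, summed to 2793 to 3001 in CD144+ and 513.9 to 606.5 in CD144- cells at day 3.5, and to 18310 to 20410 and 18380 to 20760 at day 6.5, with 2 and 3 of them called as higher. The 4 pluripotent markers summed to 20310 to 23050 in CD144+ cells at day 3.5 and 9857 to 10390 at day 6.5, with 2 called as lower, and to 18460 to 20510 and 17480 to 17490 in CD144- cells, with none called in limma. The 4 neuroectoderm markers summed to 1078 to 1090 and 1441 to 1699 in CD144+ cells, with 1 called as higher. No marker was listed at 0 on any array. The part of these other cells in the collagen values was not tested.

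Among the other types, Col13a1 (1422866_at), a collagen that spans the plasma membrane at sites of adhesion, stood out in VEGF-R2+ cells. It read 1732 and 1721 there, and between 47.6 and 358 on the other 14 arrays. The log2 difference between VEGF-R2+ and VEGF-R2- cells was 3.10 (standard error 0.33, adjusted p = 4.64e-06). Against VEGF-R2+ cells it was lower by -4.10 in CD41+ cells (standard error 0.33, adjusted p = 4.71e-07) and by -2.61 in CD144+ cells at day 3.5 (standard error 0.33, adjusted p = 0.000106). All 3 calls stood in every alternative, and Col13a1 has only 1 probe set. In the later sorts no difference passed, with log2 values of 0.50, -0.08 and -0.36. Col23a1 (1429209_at), a further membrane-spanning collagen, read 445 and 355 in VEGF-R2+, 102 and 119 in VEGF-R2-, 287 and 320.2 in CD41+ and 70.9 and 111 in CD41- cells. Its level was higher in VEGF-R2+ cells by 1.79 (adjusted p = 0.000219) and in CD41+ cells by 1.70 (adjusted p = 0.000236). With its most variable probe set the former was 0.93 and not called (adjusted p = 0.207), while the latter was 3.34 and was called in every alternative. In CD144+ cells it read 287 and 187 at day 3.5 and 459 and 361 at day 6.5, and in CD144- cells 235 and 281, then 261 and 261, and neither sort difference passed. It was higher in CD144- cells at day 3.5 than in VEGF-R2- cells by 1.18 (adjusted p = 0.0177), a call lost without any 1 of the 4 arrays (adjusted p = 0.0704 to 0.191).

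Col9a1 (1428571_at), a collagen of the fibril surface in cartilage, read 355 and 318 in VEGF-R2+, 44.2 and 72.9 in VEGF-R2-, 104 and 51.4 in CD41+ and 81.0 and 99.5 in CD41- cells. It read 181 and 205 in CD144+ and 163 and 168 in CD144- cells at day 3.5, and 589.9 and 621 in CD144+ and 274 and 318 in CD144- cells at day 6.5, where the CD144+ arrays were its highest. Col9a1 was higher in VEGF-R2+ cells by 2.44 (adjusted p = 5.82e-05), lower in CD41+ than in VEGF-R2+ cells by -2.10 (adjusted p = 0.000568) and rose in CD144+ cells to day 6.5 by 1.62 (adjusted p = 0.00962). At day 6.5 it was higher in CD144+ than in CD144- cells by 1.02 (adjusted p = 0.0442), and in CD144- cells at day 3.5 than in VEGF-R2- cells by 1.45 (adjusted p = 0.0133). The other probe set, 1421381_a_at, gave -0.69 in the first and 1.07 in the second of these comparisons, and neither passed (adjusted p = 0.478 and 0.357). As the mean of both probe sets the values were 0.88 and -0.52, and neither was called (adjusted p = 0.123 and 0.471). The rise to day 6.5 was lost without either CD144+ array of day 6.5 or replicate 1 of day 3.5 (adjusted p = 0.0534 to 0.0587), the sort difference at day 6.5 without any 1 of the 4 arrays (adjusted p = 0.101 to 0.198), and the last without either CD144- array or replicate 1 of the VEGF-R2- cells (adjusted p = 0.0884 to 0.207).

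Col14a1 (1427168_a_at), which also sits on fibrils, read 217 and 185 in VEGF-R2+ cells and at most 97.0 on any other array. Col14a1 was higher in VEGF-R2+ than in VEGF-R2- cells by 1.66 (adjusted p = 0.0102) and lower in CD41+ than in VEGF-R2+ cells by -1.56 (adjusted p = 0.0314). The first was lost without replicate 1 of the VEGF-R2+ cells or either VEGF-R2- array (adjusted p = 0.0506 to 0.0837), the second without any 1 of the 4 arrays (adjusted p = 0.0642 to 0.122). As the mean of its probe sets the first was 0.87 (adjusted p = 0.152) and the second -1.05 (adjusted p = 0.136). The probe set 1428455_at was called where the first was not, among others as higher at day 6.5 than at day 3.5 in CD144+ cells, by 2.57 (adjusted p = 0.0249). Col19a1, which lies next to Col9a1, was called in the same 2 comparisons, higher in VEGF-R2+ cells by 1.93 and lower in CD41+ cells by -2.35, at levels below the median of all values, and was lost in 10 alternatives each time. Col9a3 (1460693_a_at) ran the other way to Col9a1. It read 68.5 and 158 in CD144+ cells at day 3.5, and at day 6.5 it read 6.33 and 38.3 in CD144+ and 126 and 186 in CD144- cells. It was lower in CD144+ than in CD144- cells of day 6.5 by -2.77 (adjusted p = 0.00359) and fell by 2.24 on the log2 scale from day 3.5 in CD144+ cells (adjusted p = 0.0393). The former was -1.85 without replicate 1 of the CD144+ cells of day 6.5 (adjusted p = 0.0533). The fall was -1.32 without that array (adjusted p = 0.283) and -1.67 without replicate 2 of day 3.5 (adjusted p = 0.256). With the most variable probe set of Col9a3 they were -1.53 and -1.005, and neither was called (adjusted p = 0.107 and 0.412).

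The genes of type VI collagen, which forms beaded filaments around cells, had 1 call in all. Col6a1 (1448590_at) read 117 and 189 in VEGF-R2+, 179 and 226 in VEGF-R2-, 39.3 and 49.9 in CD41+ and 31.0 and 70.1 in CD41- cells. It read 81.9 and 167 in CD144+ and 135 and 98.5 in CD144- cells at day 3.5, and 162 and 245 against 249 and 317 at day 6.5. It was lower in CD41+ than in VEGF-R2+ cells by -1.62 (limma, adjusted p = 0.0297) and passed in no other comparison. This call was lost in 6 alternatives, among them without replicate 1 of the CD41+ cells or replicate 2 of the VEGF-R2+ cells. Col6a2 (1426947_x_at, a probe set whose probes can match other transcripts) read 255 and 188 in VEGF-R2+, 312 and 282 in VEGF-R2-, 189.7 and 191 in CD41+, 138 and 198 in CD41-, 129 and 218 in CD144+ and 244 and 201 in CD144- cells at day 3.5. At day 6.5 it read 234 and 307 in CD144+ and 239 and 303 in CD144- cells. It passed in no comparison, and its log2 differences lay between -0.43 and 0.65. Col6a3, Col6a4 and Col6a5 had no call either.

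Calls at low signal complete the list. Col10a1 (1422253_at), a collagen of growth plate cartilage, read 49.2 and 37.1 in CD144+ cells at day 3.5 and 43.1 and 14.1 in CD144- cells at day 6.5, and between 2.03 and 11.0 on the other 12 arrays, all below the median of all values. Col10a1 was higher in CD144+ than in CD144- cells at day 3.5 by 2.53 (adjusted p = 0.00582, and 0.0513 without replicate 1 of the CD144- cells) and fell by 2.31 on the log2 scale to day 6.5 in CD144+ cells (adjusted p = 0.0313), which was lost without any 1 of the 4 arrays (adjusted p = 0.0858 to 0.118). Its sort difference at day 6.5 was lower than that at day 3.5 by -4.21 (standard error 0.84, adjusted p = 0.026), which was called in limma with all arrays and lost in 7 alternatives. Col8a2 (1434667_at), a network-forming chain of the cornea, read 40.9 and 2.34 in CD144+ and 92.3 and 79.8 in CD144- cells at day 3.5, and was lower in CD144+ cells by -2.21 (adjusted p = 0.047). Without replicate 2 of the CD144+ cells this was -0.97 (adjusted p = 0.442), without replicate 1 it was -3.46, and it was lost without either CD144- array (adjusted p = 0.202 and 0.144) and with an offset of 32, at -1.24 (adjusted p = 0.0655). Col20a1 (1425234_at) read 48.0 and 133 in CD144+ and 31.2 and 4.32 in CD144- cells at day 3.5, and was higher in CD144+ cells by 2.14 (adjusted p = 0.032), but by 1.22 without replicate 2 of the CD144- cells (adjusted p = 0.336) and by 1.34 with its most variable probe set (adjusted p = 0.282). Col9a2 was lower in CD41+ cells by -2.81 (adjusted p = 0.011), lost without replicate 1 of the CD41+ cells or either CD41- array (adjusted p = 0.0524 to 0.068).

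Collagen chains are modified, folded, exported, trimmed and cross-linked by a set of other proteins, and 43 of 48 genes listed for these steps, for partner matrix proteins and for collagen receptors were measured. In VEGF-R2+ cells 7 were higher and 6 lower, or 16.3% and 14% (all genes 16% and 13.7%), and in CD41+ cells 10 and 8, or 23.3% and 18.6% (19.2% and 17.2%). In CD144+ cells they were 6 and 7 at day 3.5, or 14% and 16.3% (13.7% and 10.3%), and 9 and 5 at day 6.5, or 20.9% and 11.6% (13.4% and 11.9%). From VEGF-R2+ to CD41+ cells 1 was higher and 10 lower, or 2.33% and 23.3% (7.04% and 7.59%), and to CD144+ cells at day 3.5, 2 and 4, or 4.65% and 9.3% (7.21% and 3.92%). By day 6.5, 10 of 43 rose in CD144+ cells, or 23.3%, and none fell (4.23% and 4%), and 1 rose in CD144- cells, Sparc, or 2.33% (0.929%). Between VEGF-R2- and CD144- cells of day 3.5, 5 were higher and 4 lower, or 11.6% and 9.3% (6.49% and 4.93%), and the interaction was called for none (limma, all arrays). The median log2 change of the 43 in CD144+ cells to day 6.5 was 0.47, beside 0.03 for all genes.

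P4ha1 and P4ha2, which encode the catalytic chains of prolyl 4-hydroxylase, the enzyme that makes the triple helix stable, were lower in the positive cells of day 3.5. P4ha1 read 656 and 545 in CD144+ and 2020.2 and 1927 in CD144- cells at day 3.5, and 1576 and 1406 against 2747 and 2508 at day 6.5. Its log2 difference was -1.71 at day 3.5 (adjusted p = 5.5e-06) and -0.82 at day 6.5 (adjusted p = 0.0036). In CD144+ cells P4ha1 rose by 1.31 and P4ha2 by 1.54 to day 6.5, and so did Plod2, a lysyl hydroxylase, by 1.29, Serpinh1, the collagen chaperone HSP47, by 0.96, and Lum, a fibril proteoglycan, by 3.08. Sparc, a matrix protein that binds collagen, read 12385 and 17604 in VEGF-R2+ and 2645 and 2473 in VEGF-R2- cells. Sparc was higher in the positive cells of all 4 sorts, by 2.53, 2.70, 2.76 and 1.95 on the log2 scale. Pcolce2, an enhancer of procollagen trimming, read 8.96 and 4.43 in CD41+ cells, the lowest of its 16 arrays, beside 375 and 382 in CD41- and 656 and 525 in VEGF-R2+ cells. Its log2 difference was -4.94 against CD41- (adjusted p = 2.6e-09) and -5.57 against VEGF-R2+ cells (adjusted p = 2.6e-09). Ddr1, a collagen receptor of epithelial cells, was lower in VEGF-R2+ cells by -3.52 and in CD41+ cells by -3.15, and Itga1, a collagen-binding integrin chain, was higher in CD144+ cells by 2.12 at day 3.5 and 2.56 at day 6.5.

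Of the 80 calls of a member in a comparison, 60 concerned a gene with further probe sets. In 25 of these another probe set was called in the same direction, in 3 none pointed the same way, and in none was another probe set called in the opposite direction.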

How the data were processed

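Gene expression in 8 sorted populations of differentiating mouse embryonic stem cells was measured on 16 Affymetrix mouse genome arrays, 2 per population, grouped by the sample labels. The authors deposited an intensity for each probe set, the MAS5 signal on a linear scale, after scaling the arrays to a common trimmed mean of 500. The MAS5 version is not given in the sources used here. The lists of the study came from dChip and were not used.

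Of 45101 probe sets 64 controls were left out, and log2(signal + 6) of the remaining 45037 was fitted for all arrays together with limma 3.58.1 (R 4.3.3, moderated statistics with a trend), with Benjamini-Hochberg adjustment over all probe sets and a threshold of 0.05. Fold changes on this scale understate those of low signals. Shares over all genes use 1 probe set for each of 18193 genes. With 2 arrays per population the precision is limited by the number of arrays. The 4 sort comparisons, 5 comparisons over time and 1 interaction share arrays with each other. Comparisons of day 3.5 with day 2.5 differ in the sorting marker as well as in the day.

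The members, classes, marker lists and gene lists were chosen with earlier results of these data known. Array values are given for Col1a1, Col1a2, Col3a1, Col5a1, Col5a2, Col4a1, Col4a2, Col18a1, Col15a1, Col6a1, Col6a2, Col2a1 and, per comparison and direction, up to 3 further called members with the largest change, no overlap and a higher mean above the median of all values. For the list of collagen processing genes the rule was up to 4 called genes per comparison. Col14a1, Col10a1, the other called members given with their change alone, P4ha2, Plod2, Serpinh1, Postn, Pdgfra, Acta2, Ttr and Shh stand outside these rules. They were chosen after their values were seen. The statistics were tested on simulated data in which the changed genes were known. There all arrays shared the same spread for a probe set, whereas duplicates of positive and negative cells agreed to different degrees. The simulation could therefore not check the calls under such unequal spread. Alternatives were quantile normalization, offsets of 1 and 32, a filter on low signals, other probe sets per gene, fits of fewer arrays, a robust prior, a replicate block and leaving out each array. Weighting the arrays by sort was added after seeing the data. Promoter windows came from RefSeq (GRCm38.p6). Plots were made in Python 3.11.15 (matplotlib 3.10.9).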

Additional observations from a re-analysis of the deposited data

Results flagged for a closer look

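Col10a1 differed between the days in its CD144 sort difference. The difference at day 6.5 minus that at day 3.5 was -4.21 on the log2 scale (limma interaction, adjusted p = 0.026), and this was lost in 7 alternatives at a signal below the median of all values.

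Some collagen genes had sort differences that ran in opposite directions, with all arrays of the positive cells on one side at day 2.5 and on the other side later. For Col18a1 the log2 difference was higher than that of VEGF-R2 at day 2.5 by 2.33 in the CD41 sort, by 3.49 in the CD144 sort of day 3.5 and by 3.28 in that of day 6.5. For Col1a2 it was higher by 1.51 in the CD41 sort and by 1.64 in the CD144 sort of day 6.5, and for Col3a1 by 4.46 in the CD41 sort. These differences between sorts were not tested.

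The hybridization control probe sets, which are not part of the comparisons, read 8144 on the lowest array of positive cells and 3801 on the highest array of negative cells.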

How the results depend on the processing

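Of the 80 calls of a collagen gene, 28 stood in all alternatives, and over 1151 values 902 kept the call, 249 lost it and 0 changed direction. Of the 80, 33 stood without each array. The settings named above with a lost call are not always all of those that lost it. Numbers of collagen genes called follow, without shares of all genes, which were not counted in the alternatives. The cause of each change was not tested. With the mean of all probe sets of a gene 9 were called for VEGF-R2 at day 2.5. Between CD41+ and VEGF-R2+ cells 4 were called with only the compared groups, 6 with only arrays of the same sort sign and 5 with array weights by sort, which were chosen after seeing the data. Between CD144+ cells of day 3.5 and VEGF-R2+ cells 5 were called with quantile normalization, 6 with an offset of 32, 5 with the filter on low values, 5 with the robust prior and 5 where the most variable probe set stood for a gene. From day 3.5 to day 6.5 in CD144+ cells these were 7 with arrays of the same sort sign and 6 with weights. Between CD144- cells of day 3.5 and VEGF-R2- cells they were 13 with only the compared groups, 13 with the same sort sign and 14 with weights. From day 3.5 to day 6.5 in CD144- cells they were 1 with the robust prior and 11 with weights. For the interaction, where Col10a1 alone was called, as lower, they were 2 with the filter, both higher and without Col10a1, which the filter removes, 2 with only the compared groups, 1 higher and 1 lower and again without Col10a1, and 2 with weights, both lower. An offset of 32 made the log2 changes of several members at low signal smaller by over 1.5 times, among them Col10a1, Col15a1 and Col9a2.

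Leaving out 1 array gave 8 to 11 calls for VEGF-R2, 4 to 7 for CD41, 5 to 10 for CD144 at day 3.5 and 4 to 6 at day 6.5. It gave 4 to 10 from VEGF-R2+ to CD41+ cells, 2 to 4 to CD144+ cells of day 3.5, 6 to 8 in CD144+ cells over time, 2 to 3 in negative cells to day 3.5, 2 to 6 to day 6.5 and 0 to 1 for the interaction. A population left with 1 array is taken to vary like the others. Counts moved by over 1.5 times without VEGF-R2- replicate 1 (9) or 2 (8), CD41- replicate 1 (4), CD144- replicate 1 of day 3.5 (5) and CD144+ replicate 1 of day 6.5 (4) in the sorts. From VEGF-R2+ to CD41+ cells they did so without CD41+ replicate 1 (4) or VEGF-R2+ replicate 2 (5), and in CD144+ cells over time without replicate 1 (6) or 2 (7) of day 6.5. In negative cells they did so to day 3.5 without any 1 of the 4 arrays, and to day 6.5 without replicate 2 of day 6.5 (3) or of day 3.5 (2). The interaction was called for 0 without CD144+ replicate 1 of day 6.5 or any array of day 3.5.

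Whether the replicate numbers pair the arrays was checked by correlating the duplicates' differences over 28 pairs of populations, which gave -0.17 to 0.157, so pairing was not established. With the replicate number as a block, the counts for the 4 sorts were 13, 9, 10 and 7, for the 5 comparisons over time 11, 3, 12, 7 and 6, and for the interaction 1.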
